A study of Mus musculus with 6 samples.

Results

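This account follows 10 genes of the extracellular matrix among the 24062 genes counted in mouse leukemia cells: Smoc1, Thbs1, Sparc, Tgfbi, Fn1, Lama5, Vcan, Ecm1, Timp2 and Adam8. They encode secreted matrix proteins and proteins that modify the matrix, and they were chosen by symbol, because Smoc1 and Thbs1 were higher and Lama5 was lower in the libraries labelled A20 KO. All 10 were in the table, and 9 passed the filter on low counts. Sparc did not.

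The cells were lineage-negative hematopoietic cells, from which cells with markers of mature lineages had been removed, transformed with a retrovirus carrying MLL-AF9, a fusion gene found in acute leukemia. Both groups carried Rosa Cre-ER, a recombinase that tamoxifen switches on. The 3 libraries labelled A20 WT came from A20 +/+ cells and the 3 labelled A20 KO from A20 f/f cells, in which the A20 gene is flanked by recombination sites. Every culture had received 1 µM 4-hydroxytamoxifen for 48 h and was kept in serum with IL-6, IL-3 and SCF. The labels do not say whether replicates came from separate mice, transductions or cultures. A p-value thus sets the group difference only against the spread of these libraries, and that spread may be technical.

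The extracellular matrix is the protein and sugar network outside cells. Structural members such as fibronectin and laminins carry adhesion, whereas matricellular proteins such as thrombospondin-1 and the SPARC family change how cells attach and respond to growth factors. In the marrow, matrix proteins of the niche hold progenitors in place through integrins, and myeloid cells themselves secrete several of them.

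Levels are CPM, the reads of a gene relative to all counted reads of its library, after TMM scaling of the library sizes. Values under the WT label or the KO label are those of replicates 1, 2 and 3, in this order. The libraries held 16113320 to 25415274 counted reads, and a floor of 3 reads corresponded to 0.125 to 0.179 CPM. Tnfaip3, which encodes A20, was at 7.39, 8.67 and 8.24 CPM under the WT label and at 100.1, 74.1 and 79.1 CPM under the KO label. Its reads were thus higher, not lower, under the KO label. The counts cover the whole gene and do not measure the deletion, so they cannot settle whether the label is right. The groups are therefore called by label throughout, and a gene is called higher or lower for the KO label against the WT label. The groups also differed in donor sex by transcript (Xist at 564 to 2109 against 0 to 4.77 CPM), so genotype label and sex cannot be told apart. Replicate 1 stood apart in both groups, with Gapdh at 2645 and 2716 CPM against 167 to 254 CPM in the other libraries. Markers of blood cells were all present (10 of 10 tested, summed level 2625 to 3692 against 4750 to 6533 CPM).

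**Figure D1:**
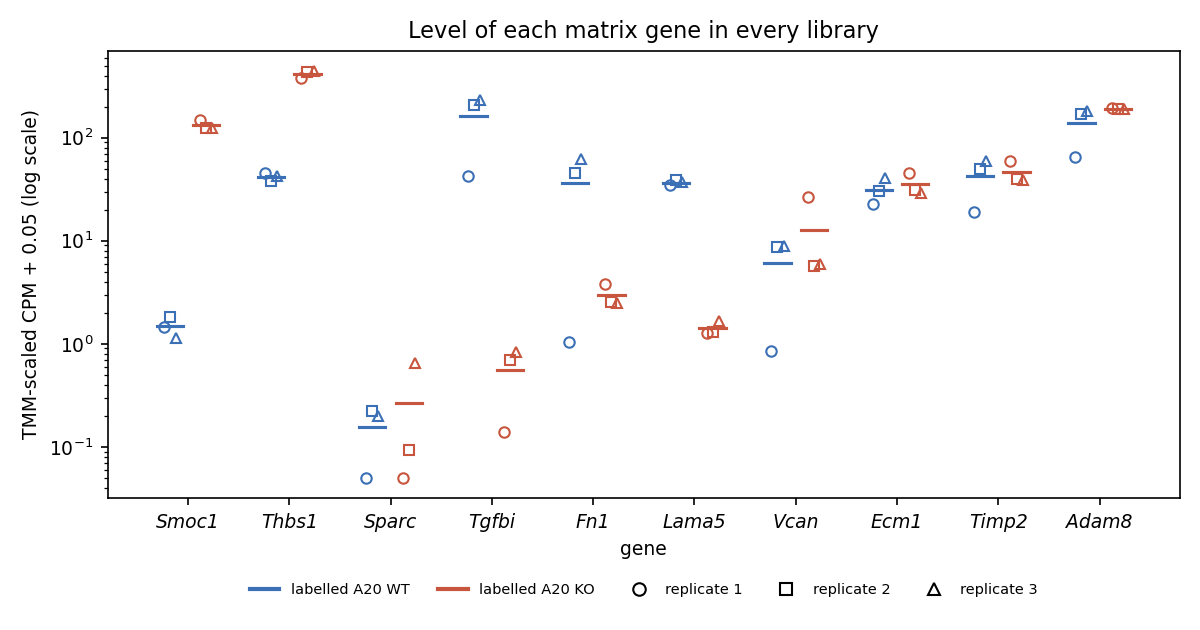
Level of the 10 matrix genes in each library (vertical axis, TMM-scaled CPM plus 0.05, log scale), with WT-labelled libraries in blue, KO-labelled libraries in red, a marker shape for each replicate number and a bar at the group mean (n = 3). Smoc1 and Thbs1 lay higher and Lama5 and Tgfbi lower in all KO-labelled libraries, while replicate 1 (circles) lay apart for Fn1, Vcan and Tgfbi.

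Smoc1 and Thbs1, both matricellular, were the members with the largest excess under the KO label. Smoc1 encodes a calcium-binding protein of the SPARC family that is known to modulate BMP signalling. The gene spans positions 81026808 to 81186414 of chromosome 12 (mm10, as for all positions below), plus strand. It had 1.42, 1.78 and 1.09 CPM under the WT label (34, 31 and 22 reads) and 148, 123 and 125 CPM under the KO label (3284, 2839 and 2097 reads). Thus the gene went from at most 34 reads in a library of one group to at least 2097 in a library of the other, with no overlap. The ratio of group means was 92.3 (1.43 ± 0.34 against 132 ± 13.9 CPM, SD, n = 3), and the log2 fold change was 6.53 (SE 0.22).

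Thbs1 encodes thrombospondin-1, a large glycoprotein that binds CD36 and CD47 and can activate latent TGF-β. The gene lies on chromosome 2 at 118111876 to 118127133, on the plus strand. Its level was 45.1, 37.7 and 42.7 CPM under the WT label and 379, 433 and 443 CPM under the KO label. It was therefore well expressed in both groups, and its lowest KO-labelled library lay far above its highest WT-labelled library. The ratio of group means was 9.99 (41.8 ± 3.76 against 418 ± 34.5 CPM) and the log2 fold change was 3.32 (SE 0.15). Smoc1 and Thbs1 varied little within either group: the highest library exceeded the lowest by 1.63-fold and 1.19-fold in the WT-labelled group, and by 1.20-fold and 1.17-fold in the KO-labelled group.

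Sparc, which encodes the founding member of the family that Smoc1 belongs to, was at the limit of detection. It had 0, 3 and 3 reads under the WT label and 0, 1 and 10 under the KO label. KO-labelled replicate 3 was the one library above the floor of 3 reads, so no fold is given. The relatives differed in level as well: per kilobase of merged exons Smoc1 reached a mean of 37.8 CPM under the KO label and Sparc 0.056.

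Tgfbi showed the largest difference of the 10 genes, in the other direction. It encodes a secreted adhesion protein that TGF-β induces and that monocytes and macrophages express. The gene lies on chromosome 13 at 56609523 to 56639562, on the plus strand. It had 42.6, 210 and 231 CPM under the WT label and 0.090, 0.65 and 0.78 CPM under the KO label. A gene with 1020 to 4644 reads per WT-labelled library was thus left with 2, 15 and 13 reads, although its WT-labelled level itself varied 5.42-fold. Group means were 161 ± 103 and 0.51 ± 0.36 CPM, 319-fold apart, with a log2 fold change of −8.34 (SE 0.93). In the replicate 1 pair the ratio was 472 in favour of the WT-labelled library, with a 95% counting interval of 130 to 3905 because the KO-labelled library had 2 reads. Such intervals and the floor cover counting error only.

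Lama5 encodes the α5 chain of laminins, which are sheet-forming glycoproteins of basement membranes and of the marrow niche. It lies on chromosome 2 at 180176373 to 180225859, on the minus strand. Its level was 34.6, 38.5 and 36.7 CPM under the WT label and 1.22, 1.26 and 1.61 CPM under the KO label. This was the steadiest member within the WT-labelled group, with a coefficient of variation of 5.30%, and its groups did not overlap. The means were 36.6 ± 1.94 and 1.36 ± 0.22 CPM, 26.9-fold apart, with a log2 fold change of −4.75 (SE 0.19). Tgfbi and Lama5 were both lower in each KO-labelled library, but Lama5 did not share the low value of Tgfbi in WT-labelled replicate 1.

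The stretches before the starts of Tgfbi, Lama5 and Vcan are shown because Tgfbi and Lama5 were the members called lower and Vcan differed most between the replicate 1 pair and the other libraries among the members not called that the promoter table holds. Sequences are the 250 bases before the RefSeq start (GRCm38.p6), on the gene's strand, 5′ to 3′, with capitals at matches to the GC box GGGCGG on either strand. Promoters of Smoc1, Thbs1 and Fn1 were not used here.
Tgfbi, chr13:56609336-56609585, plus strand: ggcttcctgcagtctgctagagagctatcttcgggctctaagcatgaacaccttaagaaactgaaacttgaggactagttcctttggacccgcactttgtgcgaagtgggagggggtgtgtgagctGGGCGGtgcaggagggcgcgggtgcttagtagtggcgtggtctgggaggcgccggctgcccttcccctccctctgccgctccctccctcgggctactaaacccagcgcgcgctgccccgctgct
Lama5, chr2:180225860-180226109, minus strand: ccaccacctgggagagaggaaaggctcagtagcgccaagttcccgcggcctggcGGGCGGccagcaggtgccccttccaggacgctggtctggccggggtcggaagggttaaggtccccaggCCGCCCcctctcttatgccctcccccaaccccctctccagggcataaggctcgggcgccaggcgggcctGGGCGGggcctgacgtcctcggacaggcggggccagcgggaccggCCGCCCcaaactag
Vcan, chr13:89742513-89742762, minus strand: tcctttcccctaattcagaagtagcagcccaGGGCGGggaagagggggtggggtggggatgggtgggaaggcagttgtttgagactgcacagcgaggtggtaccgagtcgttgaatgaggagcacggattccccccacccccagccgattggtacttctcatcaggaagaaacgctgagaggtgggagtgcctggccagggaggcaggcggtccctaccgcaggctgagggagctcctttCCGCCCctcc
The Lama5 stretch was the richest in G and C, with 72.4% and 19 CpG dinucleotides. Tgfbi and Vcan both had 62.4%, with 15 and 10 CpG, beside medians of 52.4% and 6 CpG over 32851 mouse promoters of the same length.

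Of 7 motifs searched on both strands, the GC box was the one found in these 3 stretches, with 4 matches before Lama5, 2 before Vcan and 1 before Tgfbi. It occurred in 32.7% of all promoters of that length. No match was found in them to the AP-1 motif TGANTCA (6.75% of all promoters), the TATA box TATAAA (12.4%), the SMAD-binding CAGA box AGCCAGACA (0.301%), the E-box CACGTG (6.02%), the PU.1 motif GAGGAAGT (2.44%) or the κB consensus (7.25%). Among the other members in the promoter table, Ecm1 had an AP-1 match 64 to 58 bases, a GC box 42 to 37 bases and a TATA box 27 to 22 bases before its start. Timp2 and Adam8 had 1 GC box each, and Sparc had none of the 7. No 2 of these matches overlapped.

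Fn1 and Vcan differed between groups in a way that depended on the replicate. Fn1 encodes fibronectin, a ligand of integrins α4β1 and α5β1, and lies on chromosome 1 at 71585520 to 71653200, minus strand. It had 1.00, 45.6 and 62.3 CPM under the WT label and 3.79, 2.47 and 2.45 CPM under the KO label. WT-labelled replicate 1 thus lay below every KO-labelled library, and WT-labelled replicates 2 and 3 far above them. Over all libraries the log2 fold change was −3.64 with a wide SE of 1.19. It was 1.92 in the replicate 1 pair, which is 1 library per group, and −4.46 from the means of replicates 2 and 3.

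Vcan encodes versican, a large proteoglycan that binds hyaluronan and is made by monocytes. It lies on chromosome 13 at 89655312 to 89742509, minus strand. Its level was 0.79, 8.61 and 8.79 CPM under the WT label and 26.3, 5.67 and 5.91 CPM under the KO label. Replicate 1 was the lowest WT-labelled library and the highest KO-labelled library, so the groups overlapped. The log2 fold change was 1.07 (SE 0.92) over all libraries, 5.05 in the replicate 1 pair and −0.59 from the means of replicates 2 and 3, and −0.055 without KO-labelled replicate 1.

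The monocyte and macrophage marker list was lowest in the same WT-labelled library. Its 10 genes summed to 938, 2747 and 1850 CPM under the WT label and to 4321, 2428 and 2428 CPM under the KO label. Of its 9 tested genes 2 were higher and 3 lower by edgeR, and each of the 10 had a read. In bulk RNA, fewer cells of a type and less RNA per cell cannot be told apart, and the part of this list in the values of Fn1, Vcan and Tgfbi was not tested.

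**Figure D2:**
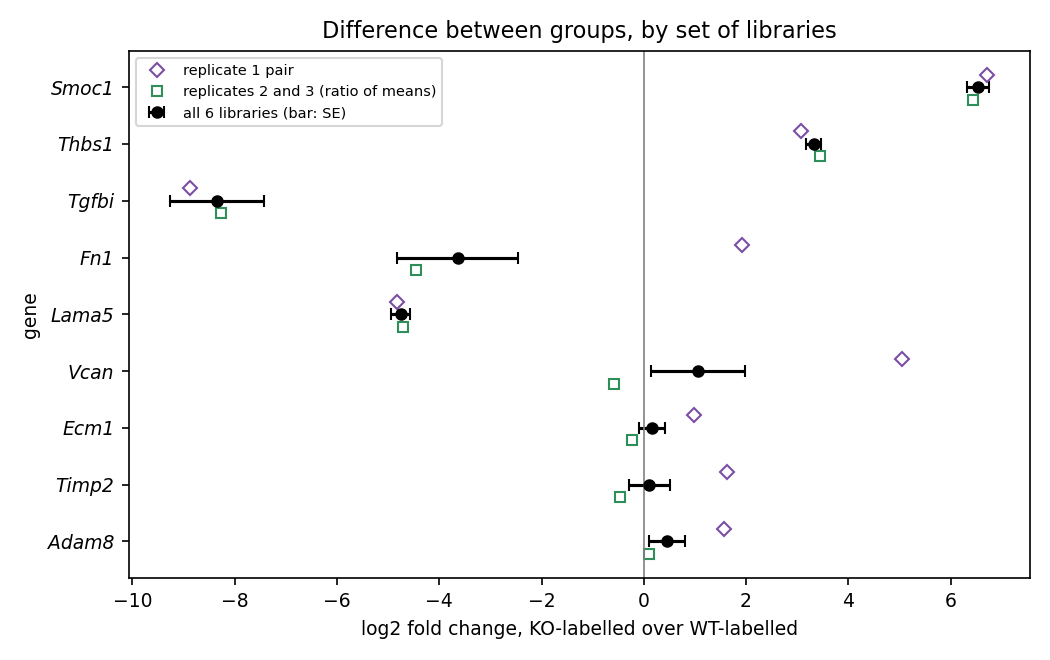
Log2 fold change (horizontal axis, KO-labelled over WT-labelled) of the 9 matrix genes that passed the filter, from all 6 libraries (black, bar = SE), from the replicate 1 pair (purple diamonds) and from the means of replicates 2 and 3 (green squares). The 3 estimates lie together for Smoc1, Thbs1, Tgfbi and Lama5, and on both sides of 0 for Fn1, Vcan, Ecm1 and Timp2.

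Ecm1, Timp2 and Adam8 were expressed in every library, with ratios of KO-labelled to WT-labelled means of 1.12, 1.08 and 1.37. Ecm1 encodes a secreted glycoprotein that binds other matrix proteins (chromosome 3, 95734147 to 95739569, minus strand). It had 22.8, 30.4 and 40.7 CPM under the WT label and 45.0, 31.3 and 29.1 CPM under the KO label. The ranges overlapped, and the log2 fold change of 0.17 was smaller than its SE of 0.26.

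Timp2 encodes an inhibitor of matrix metalloproteinases that also takes part in activating MMP2 on the cell surface (chromosome 11, 118301069 to 118355740, minus strand). Its level was 19.1, 49.7 and 59.2 CPM under the WT label and 59.1, 40.1 and 38.5 CPM under the KO label. Again replicate 1 was the lowest library of one group and the highest of the other. The log2 fold change was 0.11 (SE 0.40).

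Adam8 encodes a membrane-anchored metalloproteinase of leukocytes that cleaves adhesion molecules and matrix proteins (chromosome 7, 139978932 to 139992562, minus strand). It had 65.1, 171 and 182 CPM under the WT label and 193, 188 and 190 CPM under the KO label. The groups did not overlap, but they lay close together for replicates 2 and 3: the ratio of means was 2.96 in the replicate 1 pair and 1.07 in replicates 2 and 3. In the KO-labelled group it varied least of all members, with a coefficient of variation of 1.18%.

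Across the 10 genes, 5 showed no overlap between the groups: Smoc1, Thbs1 and Adam8 higher, Lama5 and Tgfbi lower. Of all tested genes 47.6% had none. By edgeR's quasi-likelihood test across all genes 2 members were called higher, Smoc1 and Thbs1, and 2 lower, Lama5 and Tgfbi, beside 13.7% of all genes called higher and 13.7% lower. These counts are a description, since the members were chosen from this contrast. From replicates 2 and 3 alone the counts were 2 higher and 5 lower of 9, beside 25.8% and 27.1% of all genes (52.9% in either direction). Without WT-labelled replicate 1 they were 2 and 3 (22% and 20.8% of all genes), and without KO-labelled replicate 1 they were 2 and 2 (8.91% and 9.49%). The 9 tested members had a median log2 fold change of 0.17, and all 12126 tested genes −0.04.

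Within the WT-labelled group, replicate 1 lay at least 2-fold below both other libraries for 5 members, Fn1, Vcan, Tgfbi, Timp2 and Adam8 (after 0.5 CPM was added). Of all tested genes 7.27% did so. It lay as far above both others for 0 members and 2.72% of all tested genes. Within the KO-labelled group, replicate 1 lay at least 2-fold above both others for Vcan alone, and for 2.62% of all tested genes, and as far below for 0 members and 0.577%. Smoc1, Thbs1, Lama5 and Ecm1 were in neither set.

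Per kilobase of merged exons, on the same TMM-scaled library sizes, the order of the members differed between the groups. In the WT-labelled libraries Tgfbi (42.7 ± 27.3 CPM per kb) and Adam8 (30.0 ± 13.9) led, followed by Ecm1 (12.4 ± 3.55), Timp2 (10.95 ± 5.39) and Thbs1 (6.89 ± 0.62). Each of these overlapped its neighbour in the order. Thbs1 stood clear of Lama5 (3.21 ± 0.17), which overlapped Fn1 (3.11 ± 2.71), and Vcan, Smoc1 and Sparc were lowest (0.42, 0.41 and 0.028).

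In the KO-labelled libraries Thbs1 led with 68.9 ± 5.69 CPM per kb, clear of Adam8 (41.1 ± 0.48). Adam8 overlapped Smoc1 (37.8 ± 3.97), which stood clear of Ecm1 (13.9 ± 3.42) and Timp2 (11.8 ± 2.94). Vcan (0.87 ± 0.82) and Fn1 (0.25 ± 0.07) followed, and Tgfbi, Lama5 and Sparc were at the end with 0.13, 0.12 and 0.056, each overlapping the next in the order. Smoc1 and Tgfbi thus exchanged places between the upper and the lower part of the order.

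Annotated neighbours share little sequence with these genes. Exon bases on the opposite strand made up 3.42% of Thbs1, 2.5% of Fn1 and 0.99% of Adam8, a microRNA covered 2.5% of Ecm1 on its own strand, and between 0% and 3.82% of a member's 31-base words occurred in transcripts of other genes. The strand setting of the counting is not given in the sources used here.

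Other matrix genes were counted from 5 lists that hold no member. Of 159 symbols 72 passed the low-count filter, and 18 rose, 14 fell and 40 did not pass the edgeR test, beside the 27.3% of all genes that passed in either direction. The median log2 fold change of the 72 was 0.10. The count that fell was 23 of 76 without WT-labelled replicate 1, where 23 rose, and 9 of 75 without KO-labelled replicate 2, where 12 rose. Both counts over all genes were also larger in the first setting and smaller in the second. In replicates 2 and 3 alone, 24 of 74 were higher and 29 were lower.

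**Figure D3:**
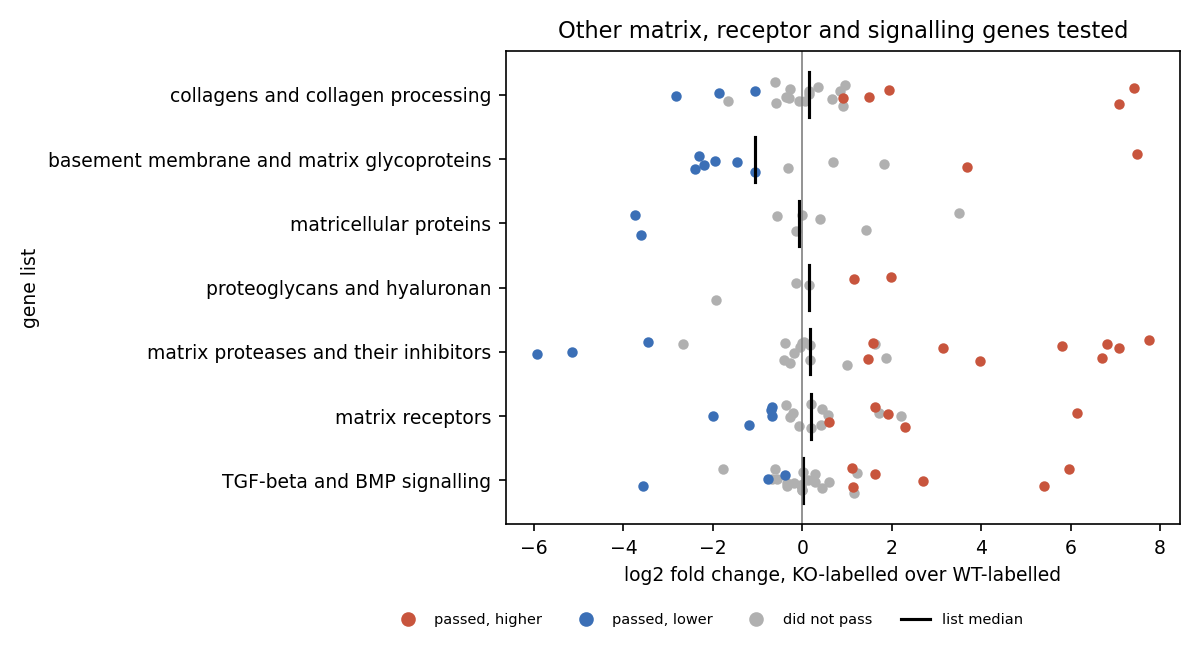
Log2 fold change (horizontal axis, KO-labelled over WT-labelled) of each tested gene in 7 lists that hold none of the 10 members, in red where it passed the edgeR test as higher, in blue as lower and in grey where it did not pass, with the list median as a black bar. Medians lie between −0.08 and 0.19 except for basement membrane and matrix glycoproteins, at −1.07, which was −0.33 without WT-labelled replicate 3 and 0.27 with no low-count filter.

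Collagens and the enzymes that process them went both ways, with 5 risen, 3 fallen and 15 not passed of 23 tested. Col6a3, a chain of the beaded-filament collagen VI, rose from 0.13, 0.86 and 2.33 CPM to 132, 152 and 156 CPM (log2 fold change 7.07, SE 0.71, edgeR adjusted p = 6.6e-04). Col5a1, a chain of fibril-forming collagen V, had 1 read under the WT label and 234 under the KO label. That is a ratio of 232 (95% counting interval 41.2 to 9203; edgeR adjusted p = 6.7e-04).

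Enzymes of collagen modification differed in direction. Plod2, a lysyl hydroxylase, fell from 11.0 ± 3.83 to 1.55 ± 0.34 CPM (edgeR adjusted p = 0.0017), and Lepre1, a prolyl hydroxylase, rose from 10.5 ± 3.35 to 29.6 ± 3.74 CPM (0.0053). Lepre1 did not pass with replicates 2 and 3 summed (adjusted p = 0.063, over a range of 4.5e-07 to 0.063 in 17 alternatives). For the list, 7 rose and 6 fell without WT-labelled replicate 1, where both counts over all genes were larger as well.

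Markers of fibroblasts, the main collagen source in tissue, were at or below 4.03 CPM in every library except Thy1. Among them Pdgfrb rose from 0.50, 0.23 and 0.45 CPM to 2.70, 4.03 and 3.70 CPM. Dcn and Lum had no read in any library, and without Thy1, which lymphoid and progenitor cells also express, the other markers summed to 0.79 to 2.09 CPM under the WT label and 3.60 to 5.91 CPM under the KO label. With Thy1 the sums were 239 to 599 and 9.87 to 10.8 CPM. Of 3 tested markers 1 was higher (Pdgfrb) and 1 lower (Thy1). The part of this list in the collagen values was not tested.

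Basement membrane and matrix glycoproteins, the list that Lama5 would belong to, held 2 that rose, 6 that fell and 3 that did not pass of 11 tested, with a median of −1.07. Nid2, which links laminin to collagen IV, had 3 reads under the WT label and 603 under the KO label, a ratio of 199 (95% counting interval 67.9 to 969; edgeR adjusted p = 1.4e-04). Emilin2 and Emilin1, glycoproteins of elastic fibres, fell from 596 ± 76.1 to 154 ± 1.78 CPM and from 260 ± 68.2 to 56.2 ± 22.5 CPM (adjusted p = 2.1e-04 and 0.0029). Lamb3, a laminin β chain, fell from 8.27 ± 1.29 to 2.98 ± 0.54 CPM (adjusted p = 0.0064), but did not pass with replicates 2 and 3 summed (0.12, range 1.3e-05 to 0.12).

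The median of this list was −0.33 of 14 tested genes without WT-labelled replicate 3, −0.61 of 14 without WT-labelled replicate 2 and −0.60 of 13 without KO-labelled replicate 3. With no low-count filter 36 of its genes were tested and the median was 0.27. Its counts moved with single libraries too. They were 1 risen and 3 fallen of 13 without KO-labelled replicate 2 and also without KO-labelled replicate 3, and 1 and 4 of 14 without WT-labelled replicate 3. Endothelial markers, whose cells are a source of basement membranes, summed to 277 to 367 CPM under the WT label and 104 to 233 CPM under the KO label. Pecam1, which myeloid cells also express, led the sum by group means, at 258 to 329 and 58.7 to 104 CPM. Vwf went the other way, from 2.80, 26.1 and 26.2 to 122, 38.5 and 35.2 CPM, did not pass, and exceeded Pecam1 in KO-labelled replicate 1. Emcn had no read, and Cdh5, Kdr and Tek stayed at or below 0.14 CPM. Egfl7 had 16.15, 11.8 and 11.2 CPM under the WT label and 6.44, 9.22 and 9.55 CPM under the KO label, and did not pass. Tie1, which was not tested, had 0.54, 1.84 and 0.45 CPM against 0, 0 and 0.060 CPM. Of 3 tested endothelial markers 0 were higher and 1 lower by edgeR. At an unadjusted p under 0.05, 0 were higher and 2 lower. The part of this list in the result was not tested.

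Of 8 tested matricellular genes outside the members, 0 rose, 2 fell and 6 did not pass by edgeR. Igfbp4 and Igfbp7, secreted binding proteins of insulin-like growth factors, fell from 687 ± 306 to 56.0 ± 9.04 CPM and from 22.9, 13.4 and 11.8 to 1.04, 0.74 and 1.85 CPM (log2 fold changes −3.62, SE 0.34, and −3.75, SE 0.44; adjusted p = 5.2e-04 and 0.0012). At an unadjusted p under 0.05 the counts were 1 higher and 2 lower, and DESeq2 and limma-voom each called 1 of the 8 higher. Without WT-labelled replicate 1 the counts were 1 and 3, and both counts over all genes were larger as well. Of 5 tested genes for proteoglycans and hyaluronan, 2 rose, 0 fell by edgeR and 3 did not pass. At an unadjusted p under 0.05, 1 was lower, and DESeq2 and limma-voom called 0 lower.

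Tmem2, a cell-surface hyaluronidase, rose from 35.3 ± 4.26 to 78.1 ± 1.66 CPM (edgeR adjusted p = 9.9e-04), and Hapln4, which links hyaluronan to proteoglycans, from 0.66 ± 0.33 to 2.66 ± 0.41 CPM (adjusted p = 0.018). Hapln4 did not pass when WT-labelled replicate 2 or any 1 KO-labelled library was left out, or with replicates 2 and 3 summed (adjusted p up to 0.13 over a range from 9.2e-04). Leaving out WT-labelled replicate 2 gave 1 risen and 0 fallen of 6 in this list. Leaving out WT-labelled replicate 1 gave 2 and 3 of 7, and leaving out any KO-labelled library gave 1 and 1. Over all genes both counts were smaller without WT-labelled replicate 2 or any KO-labelled library, and larger without WT-labelled replicate 1.

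Matrix proteases and their inhibitors, to which Adam8 and Timp2 are related, held 9 that rose, 3 that fell and 13 that did not pass of 25 tested. Adam15, a membrane metalloproteinase of the same family as Adam8, rose from 58.4 ± 4.46 to 175 ± 14.5 CPM (log2 fold change 1.58, SE 0.13, edgeR adjusted p = 2.3e-04). Serpinb2, a serpin that inhibits urokinase, rose from 0, 0.63 and 0 CPM to 20.2, 23.7 and 21.5 CPM (adjusted p = 0.0026).

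Htra1, a secreted serine protease, had no read under the WT label and 1.30 ± 0.19 CPM under the KO label, which is at least 8.76-fold higher when each WT-labelled library is set to 3 reads. It passed the edgeR test (adjusted p = 0.0039). Leaving out KO-labelled replicate 1 gave 5 risen and 2 fallen in this list, and leaving out KO-labelled replicate 2 gave 6 and 1 of 24. Leaving out WT-labelled replicate 1 gave 11 and 5. Calls over all genes also became fewer without either of these KO-labelled libraries, and more without WT-labelled replicate 1.

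Platelets and megakaryocytes store thrombospondin-1 and other matrix proteins. Their 10 markers summed to 28.0 to 42.1 CPM under the WT label and 1.58 to 2.09 CPM under the KO label, and their part in the values of Thbs1 was not tested. Of 4 tested 1 was higher and 3 lower, Itga2b led the sum, and Gp6 had no read. With Itga2b left out the sums were 5.68 to 6.70 and 0.86 to 1.31 CPM. Mast cell and basophil markers summed to 82.0 to 156 and 16.6 to 18.3 CPM, with Fcer1a, Cma1, Tpsb2 and Tpsab1 without a read and 0 higher and 2 lower of 4 tested. Gata2 led this sum, with means of 79.6 CPM under the WT label and 4.93 CPM under the KO label. Without Gata2 the sums were 21.1 to 36.4 and 11.6 to 13.6 CPM. Neutrophil markers summed to 4.48 to 8.18 and 7.49 to 11.0 CPM, with 1 higher and 0 lower of 3 tested. Cxcr2 led this sum, and without Cxcr2 the sums were 0.50 to 1.21 and 5.11 to 5.81 CPM.

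**Figure D4:**
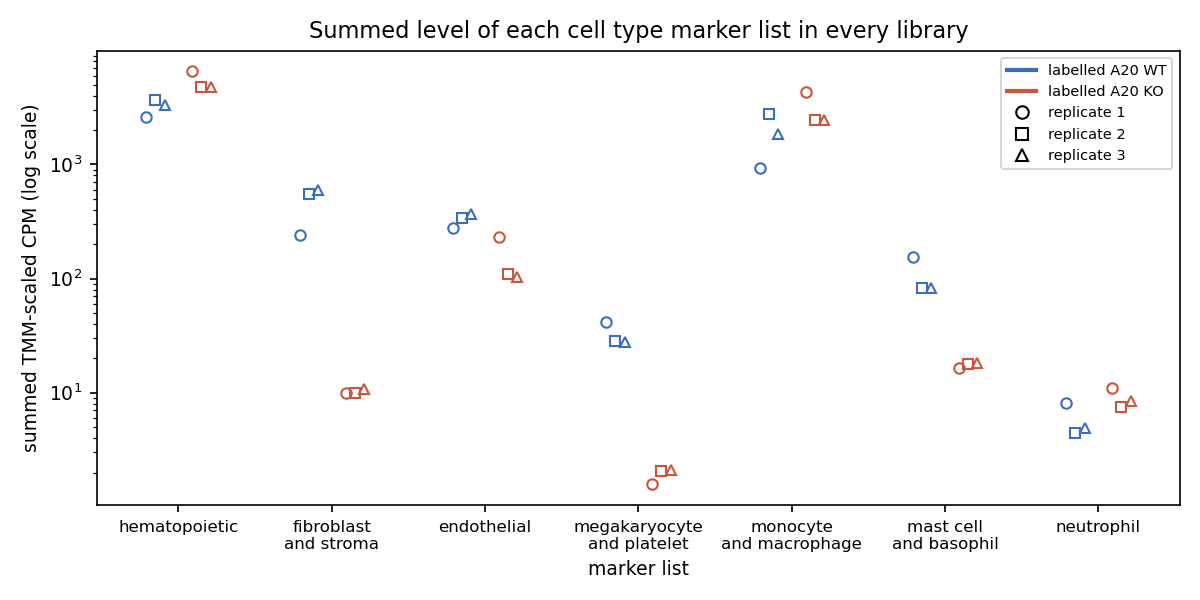
Summed level of 7 marker lists (vertical axis, TMM-scaled CPM, log scale) in each library, in blue for WT-labelled and red for KO-labelled libraries, with a marker shape for each replicate number. Megakaryocyte markers, a sum led by Itga2b, lie between 28.0 and 42.1 CPM in WT-labelled libraries and at or below 2.09 CPM in KO-labelled libraries. Monocyte markers are lowest in WT-labelled replicate 1.

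Receptors that bind these proteins changed in both directions, with 5 risen, 5 fallen and 11 not passed of 21 tested. Itga4, the integrin subunit that binds fibronectin and VCAM-1, fell from 500, 432 and 494 CPM to 111, 116 and 130 CPM (log2 fold change −1.99, SE 0.14, edgeR adjusted p = 1.4e-04). Sdc1, a heparan sulfate proteoglycan that binds fibronectin and thrombospondin-1, rose from 1.00, 3.39 and 1.94 CPM to 270, 84.7 and 84.6 CPM (adjusted p = 0.0011). Stab1, a scavenger receptor that takes up Sparc, rose from 6.39 ± 0.48 to 19.7 ± 4.33 CPM (adjusted p = 0.0018). Plaur, the urokinase receptor, rose from 47.5 ± 16.3 to 178 ± 58.8 CPM (adjusted p = 0.0062).

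Receptor counts were 3 risen and 1 fallen without KO-labelled replicate 2 or 3, and 4 and 3 without WT-labelled replicate 3. Replicates 2 and 3 alone gave 7 and 8 of 20. Calls over all genes also became fewer when any 1 of these libraries was left out, and more in replicates 2 and 3 alone.

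Genes of TGF-β and BMP signalling, which Thbs1, Tgfbi and Smoc1 touch as activator, target and modulator, held 6 that rose, 3 that fell and 19 that did not pass of 28 tested, with a median of 0.01. Bmpr1a, a BMP receptor, rose from 0.13, 0.23 and 0.20 CPM to 15.8, 9.61 and 9.73 CPM (log2 fold change 5.97, SE 0.40, edgeR adjusted p = 1.2e-04). Ltbp2, of the latent TGF-β binding protein family, rose from 0.39 ± 0.39 to 17.0 ± 8.32 CPM (adjusted p = 0.0017). Tgfbr3, a TGF-β co-receptor, rose from 2.99 ± 0.67 to 9.28 ± 2.52 CPM and Smad5, a transducer of BMP signals, fell from 62.1 ± 4.14 to 36.5 ± 0.96 CPM (adjusted p = 0.0080 and 0.0032).

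Tgfbr3 and Smad5 did not pass with replicates 2 and 3 summed (adjusted p = 0.083, range 2.1e-05 to 0.083, and 0.089, range 1.5e-06 to 0.089). The number that rose was 10 without WT-labelled replicate 1, and 1 gene fell without WT-labelled replicate 2, WT-labelled replicate 3 or KO-labelled replicate 2. Over all genes, too, more rose without WT-labelled replicate 1 and fewer fell without each of the others.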

How the data were processed

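Polyadenylated RNA from 6 cultures was sequenced after stranded TruSeq preparation, per the labels' protocols. The deposited values are raw read counts per gene, made by the authors with HISAT2 2.0.5 and featureCounts 1.5.2 on mm10 after FastQC 0.11.7, per the submitters' processing notes. The gene annotation, and whether counting used strand, is not given in the sources used here. From these counts edgeR 4.0.16 (R 4.3.3) was run with TMM scaling, its default low-count filter (12126 of 24062 genes kept), robust dispersion and the quasi-likelihood test, with Benjamini-Hochberg adjustment over all tested genes at 0.05. Standard errors are the log2 fold change over the root of the test's F. The code was tested on simulated data.

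The members, gene lists, alternatives and tests were chosen with earlier results of these data known. Named genes were the members, up to 4 called genes of smallest p per list, Tnfaip3, Gapdh and Xist as checks, and marker genes that led a sum or had no read. Of these, 1 gene is not reported here. Another 6 genes, in the closing part, and Pdgfrb, Vwf, Cdh5, Kdr, Tek, Egfl7 and Tie1 were named after their values were seen. Of the list symbols 9 were found by an older name and 1 marker was not in the table. Positions and exon lengths came from GENCODE annotation of the same assembly, promoters from RefSeq (7 of 10 members matched). The alternatives tried were DESeq2 1.42.0, limma-voom (limma 3.58.1), 3 scalings, other filters, non-robust dispersion, a replicate block, each library left out, and replicates 2 and 3 alone or summed.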

Additional observations from a re-analysis of the deposited data

How the results depend on the processing

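Smoc1, Thbs1, Lama5 and Tgfbi kept their direction under all 17 alternatives and in the replicate 1 pair. This is a description of the same libraries, since Smoc1, Thbs1 and Lama5 were chosen for their direction in them. Direction reversed for Fn1 in the replicate 1 pair (log2 fold change 1.92), for Vcan without KO-labelled replicate 1 (−0.055, up to 1.44 with each library left out) and in replicates 2 and 3 alone (−0.60), for Ecm1 without WT-labelled replicate 1 (−0.013), without KO-labelled replicate 1 (−0.048, up to 0.40) and in replicates 2 and 3 alone (−0.25), and for Timp2 in the same 3 settings (−0.24, −0.11 and −0.49, up to 0.42). The cause was not tested.

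Leaving out each library gave 939 to 2712 genes higher and 916 to 2568 lower over all genes, against 1660 and 1656. For other matrix genes it gave 12 to 23 and 9 to 23, for receptors 3 to 7 and 1 to 6, and for TGF-β and BMP signalling 4 to 10 and 1 to 4. Replicates 2 and 3 alone gave 3149 higher and 3309 lower over all genes, 29 lower for other matrix genes, 8 lower for receptors and 8 lower for signalling. With replicates 2 and 3 of each group summed into 1 sample the counts were 543 and 518, 9 and 5, 3 and 1, and 2 and 0, with fewer samples; matrix proteases and inhibitors had 4 and 0.

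Whether replicate numbers pair the samples could not be settled. Same-numbered libraries' deviations from their group means correlated across genes at −0.07, −0.14 and 0.04. Only the replicate 3 libraries correlated best with their own number. Replicate 1 of each group correlated best with replicate 2 of the other group, at 0.11 in both cases. Yet Gapdh set replicate 1 apart in both groups, and with so few libraries these correlations cannot exclude a shared batch. With the number as a replicate block, 989 genes were higher and 1034 lower, 11 and 11 of the other matrix genes, 3 and 2 of the matrix proteases and inhibitors (9 and 3 without the block), 1 and 4 of the basement membrane genes (2 and 6), 3 and 3 receptors, and 1 signalling gene lower. Htra1 did not pass with this block (edgeR adjusted p = 0.052, range over alternatives 2.6e-06 to 0.052). Other scalings moved the median of all genes by less than 0.1 on the log2 scale. With the length of the longest transcript, 4 of 20 levels per kilobase moved by more than 1 SD. Depth limits Sparc, whose 6 and 11 reads under the labels allow no comparison.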

Other observations

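Further genes near the members in function were named after their values were seen, with adjusted p from edgeR's quasi-likelihood test. Mmp8, the neutrophil collagenase, had 38.0, 467 and 388 CPM under the WT label and 16.7, 3.94 and 4.24 CPM under the KO label, and fell (log2 fold change −5.16, SE 1.08, adjusted p = 0.013). Timp1, an inhibitor related to Timp2, fell from 8.46 ± 7.40 to 0.14 ± 0.10 CPM (adjusted p = 0.013), with 0.67 CPM in WT-labelled replicate 1. Mmp14, the membrane metalloproteinase that binds Timp2, had 0, 0 and 0.50 CPM under the WT label and rose to 20.95, 3.42 and 4.24 CPM (adjusted p = 0.017). Lamc1, the γ1 chain that pairs with Lama5 in laminins, fell from 148 ± 45.3 to 70.5 ± 2.72 CPM (adjusted p = 0.015). None of these 4 calls passed under every alternative: Lamc1 was lost in 7 of 17, Mmp8 and Mmp14 in 4 of 17 each and Timp1 in 4 of 16, with adjusted p up to 0.19.

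Fstl1 and Spp1 differed widely between libraries. Fstl1, a follistatin-like relative of Sparc and Smoc1, had 2.00, 33.4 and 43.1 CPM under the WT label and 635, 131 and 127 CPM under the KO label. Its groups did not overlap, but it did not pass over all libraries (log2 fold change 3.51, SE 1.13, edgeR adjusted p = 0.059) and passed under 4 of 17 alternatives. Spp1, which encodes osteopontin, had 237, 3339 and 2887 CPM against 10210 (replicate 1), 3470 and 3574 CPM (adjusted p = 0.29). In both genes replicate 1 was the lowest WT-labelled and the highest KO-labelled library, as for Vcan and Timp2.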
